A study of Mus musculus with 25 samples.

Results

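The genes described here are 8 members of the interleukin-6 and interleukin-10 cytokine systems: the ligands Il6, Lif, Osm and Il10 and the receptor chains Il6ra, Il6st, Il10ra and Il10rb. They were chosen by symbol from the 24411 genes of the deposited count tables, and all 8 were among the 10612 genes with enough counts to be tested. RNA-seq of rRNA-depleted, strand-specific libraries was performed on 25 mouse samples in 9 conditions. Bone marrow-derived macrophages (BMDM) of C57BL/6 mice, grown with 25 ng/ml M-CSF for 4 days, made up 21 samples, 3 in each of 7 conditions, and the macrophage-like line RAW264.7 made up 4 samples, 2 in each of 2 conditions. BMDM were left without a stimulus for 4 h (control), given 100 U/ml IFN-γ with 100 ng/ml LPS for 1, 4, 12 or 24 h (IFN-γ-LPS; the length of any exposure to IFN-γ before LPS is not given in the sources used here), or given 10 ng/ml IL-4 or 10 ng/ml IL-13 for 12 h. RAW264.7 cells were left without a stimulus for 4 h or given 100 ng/ml LPS, without IFN-γ, for 4 h. The 4 h control was the only BMDM control, so the 1 h, 12 h and 24 h samples had none of their own time.

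IL-6 binds its private receptor chain IL-6Rα, encoded by Il6ra, and the pair then engages gp130, encoded by Il6st, which carries the signal into the cell. LIF and oncostatin M (Osm) also signal through gp130, together with the LIF receptor or the oncostatin M receptor. IL-10 binds IL-10Rα (Il10ra), the private chain, which joins IL-10Rβ (Il10rb), a chain shared with other cytokines of its family. Both systems pass the signal through JAK kinases to the transcription factor STAT3, but IL-6 is mainly known in macrophages as an inflammatory product and IL-10 as the cytokine that restrains such products. SOCS3, a protein induced by STAT3, blocks gp130 and leaves the IL-10 receptor largely untouched.

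In the GENCODE M21 annotation of the mouse build GRCm38 (mm10), Il6 lies at chr5:30013114-30019981, Il10 at chr1:131019845-131024974, Il6ra at chr3:89864059-89913196, Il6st at chr13:112464070-112510086, Il10ra at chr9:45253837-45269149 and Il10rb at chr16:91406164-91425834. Osm (chr11:4236420-4241026) and Lif (chr11:4257557-4272514) are neighbours on the same strand, with 16541 bases and 0 RefSeq genes between them in the RefSeq annotation of the same build. RefSeq promoter sequences were at hand for Il6, Lif, Il6ra and Il6st. The 250 bases before the start of Il6 and Lif are shown because these ligands went from no or few counts in controls to high levels. The window of Il6st is shown as an example of a receptor present in every sample. Il6ra was also present in every sample, and its window was searched but is not shown. Capitals mark matches, on either strand, to the letter patterns GGGNNTTTC (NF-κB), TGANTCA (AP-1), TGACGT (the core of a cAMP response element), TTGCNNAA (C/EBP), TTCNNNGAA (STAT), GAAANNGAA (IRF) and TATAAA (the core promoter box named after it).
Il6, plus strand, chr5:30012864-30013113: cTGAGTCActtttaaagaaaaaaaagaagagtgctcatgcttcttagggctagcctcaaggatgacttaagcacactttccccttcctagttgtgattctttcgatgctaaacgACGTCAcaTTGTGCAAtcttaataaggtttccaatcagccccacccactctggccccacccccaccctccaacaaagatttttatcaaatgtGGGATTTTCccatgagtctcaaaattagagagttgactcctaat
Lif, plus strand, chr11:4257318-4257567: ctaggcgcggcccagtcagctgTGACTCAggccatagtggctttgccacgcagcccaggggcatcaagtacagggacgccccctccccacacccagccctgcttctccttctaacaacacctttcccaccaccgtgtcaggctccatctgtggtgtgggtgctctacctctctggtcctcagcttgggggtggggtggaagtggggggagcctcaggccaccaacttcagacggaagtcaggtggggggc
Il6st, plus strand, chr13:112463820-112464069: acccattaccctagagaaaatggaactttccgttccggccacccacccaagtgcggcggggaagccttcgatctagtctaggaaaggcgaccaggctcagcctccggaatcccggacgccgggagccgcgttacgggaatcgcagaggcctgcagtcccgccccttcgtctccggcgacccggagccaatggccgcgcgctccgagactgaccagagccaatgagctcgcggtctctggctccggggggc
The Il6 window held 4 matches, to the AP-1, cAMP response element, C/EBP and NF-κB patterns in that order toward the start, and the NF-κB match covered the bases from 44 to 36 before the start. Of all 32851 RefSeq promoters cut to the same length, 3.72% held the NF-κB pattern, 9.56% the C/EBP pattern, 6.75% the AP-1 pattern and 6.47% the cAMP response element core. The Lif window held 1 match, to the AP-1 pattern, and the Il6st and Il6ra windows held 0 matches. The windows also differed in composition: that of Il6 had 3 CpG dinucleotides and 42.8% G and C, that of Lif 6 and 63.6%, that of Il6ra 18 and 65.2%, and that of Il6st 26 and 66%. A match describes the letters in the window and does not show that a factor binds there.

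Levels are given as CPM, the sense-strand counts of a gene per 1000000 counts of its library, with libraries scaled by TMM factors after leaving out Rn45s, the 45S ribosomal RNA precursor, which took 20.1% to 39.8% of the counts. Total sense counts were 2378639 to 3357300 per sample, or 1502618 to 2532496 without Rn45s, so that 1 count corresponded to 0.347 to 0.885 CPM. All 7 macrophage markers examined were detected in every BMDM condition, and 6 of 7 in RAW264.7, where Mertk was at 0. Of markers of other cells, Cd3d, Cd3e and Cd3g (T cells) and Ms4a1 (B cells) were at 0 in all libraries, while the 5 fibroblast and stromal markers (Col1a1, Col1a2, Col3a1, Pdgfra and Dcn) summed to 52.4 to 109 CPM in BMDM libraries and to 0 in RAW264.7. Their part in the values of the cytokine genes was not tested. In bulk samples, fewer cells of a type and less RNA per cell cannot be told apart. Differences are log2 fold changes ± SE from 1 edgeR quasi-likelihood fit over all 25 samples, and a gene was called at a Benjamini-Hochberg adjusted p of at most 0.01 over the 10612 genes.

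The first comparison asks how the ligands and receptors behaved over time after IFN-γ-LPS. At 1 h, 6 of the 8 members were called against the control, where 24.9% of all tested genes were; at 4 h 6 were called (48.5% of genes), at 12 h 6 (44.9%) and at 24 h 6 (42.8%). Between neighbouring times, 4 members differed from 1 to 4 h (36.3% of genes), 7 from 4 to 12 h (33.4%) and 3 from 12 to 24 h (13.6%). From 4 to 12 h, 5 to 6 members were called when any 1 library was left out. Of the ligands, all 4 rose at 1 h, and Il6, Lif and Il10 were called higher at every later time. Of the receptors, Il6st was lower at all 4 times and Il6ra at 4, 12 and 24 h, whereas Il10ra was higher at 1, 4 and 12 h. The 4 comparisons share the same 3 control libraries, so their errors are not independent. Of the markers of other cells, Clec9a, known from dendritic cells, went from at most 0.543 CPM in controls to 48.0 to 52.7 CPM at 1 h, with Flt3 and Cd209a at 0, and the T cell kinase Lck reached 4.10 to 12.4 CPM at 4 h, with Cd3d, Cd3e, Cd3g and Cd2 at 0. The neutrophil markers S100a8, S100a9, Mpo and Elane summed to 8.69 to 16.6 CPM in controls and 26.4 to 42.6 CPM at 1 and 4 h. Mpo was at 0 in these libraries and Elane had 1 count, at 1 h, so the rise came from S100a8 and S100a9. The part of all these markers in the results was not tested.

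Il6 had 0 counts in all 3 control libraries, which allows up to 0.538 CPM over the group. At 1 h after IFN-γ-LPS its levels were 9.50, 16.1 and 17.2 CPM, and at 4 h they were 640, 726 and 689 CPM. They were then 294, 272 and 176 CPM at 12 h and 117, 167 and 150 CPM at 24 h. Every stimulated library lay above every control library, and the 4 time points did not overlap. Against the floor of 3 counts over the control group, Il6 was at least 26.5-fold higher at 1 h, 1277-fold at 4 h, 459-fold at 12 h and 269-fold at 24 h (edgeR adjusted p = 1.4e-05, 6.46e-16, 8.53e-14 and 1.56e-12). The steps between times were also called: 5.58 ± 0.22 (log2, SE) from 1 to 4 h, then a fall by 1.47 ± 0.15 from 4 to 12 h and by 0.77 ± 0.16 from 12 to 24 h (edgeR adjusted p = 1.39e-14, 1.25e-07 and 0.00153). The last of these was not called with library size in place of TMM factors (0.0151) or in a fit of the groups compared alone (0.0164).

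Il10, in contrast, already had its highest group mean at 1 h. The 3 control libraries held 1 Il10 count in all. Il10 levels were 53.7, 65.6 and 42.0 CPM at 1 h, 23.0, 35.7 and 29.5 CPM at 4 h, 20.8, 18.2 and 50.6 CPM at 12 h, and 9.77, 6.96 and 5.89 CPM at 24 h. All stimulated libraries lay above all controls, but the 4 h and 12 h libraries overlapped, and so did the 1 h and 12 h libraries. The 12 h group differed from the 1 h group by -0.82 ± 0.26 (edgeR adjusted p = 0.00955). Set against the single control count, the ratio of the group levels was 294 at 1 h (95% counting interval 52.4 to 11669) and 41.6 at 24 h (7.12 to 1677). The change from 1 to 4 h was -0.84 ± 0.28 and was not called (edgeR adjusted p = 0.0133), the 12 h and 4 h groups differed by 0.02 ± 0.30 (0.966), and Il10 fell by 2.0 ± 0.35 from 12 to 24 h (8.79e-05). All 1 h libraries lay above all 4 h libraries, and that step was called with library size only, no filter beyond 1 count, unstranded counts, the groups compared alone or the third 1 h library left out (adjusted p = 9.98e-05 to 0.00809). The third 12 h library held the highest Il10 level of its group, the lowest Il6 level and the lowest Lif level. Without it, the difference between 12 h and 4 h was -0.60 with an adjusted p of 0.0572.

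Within a library, the number of Il6 counts per Il10 count therefore moved over a wide range. At 1 h it was 0.177, 0.245 and 0.410, so Il10 counts outnumbered Il6 counts in all 3 libraries. At 4 h it was 27.8, 20.3 and 23.3, at 12 h 14.1, 14.96 and 3.49, and at 24 h 12.0, 24.0 and 25.5. The 1 h libraries lay below all later libraries, while 4, 12 and 24 h overlapped. These are ratios of counts not adjusted for transcript length, so their change over time can be read but not the point at which the messengers were equal.

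**Figure D1:**
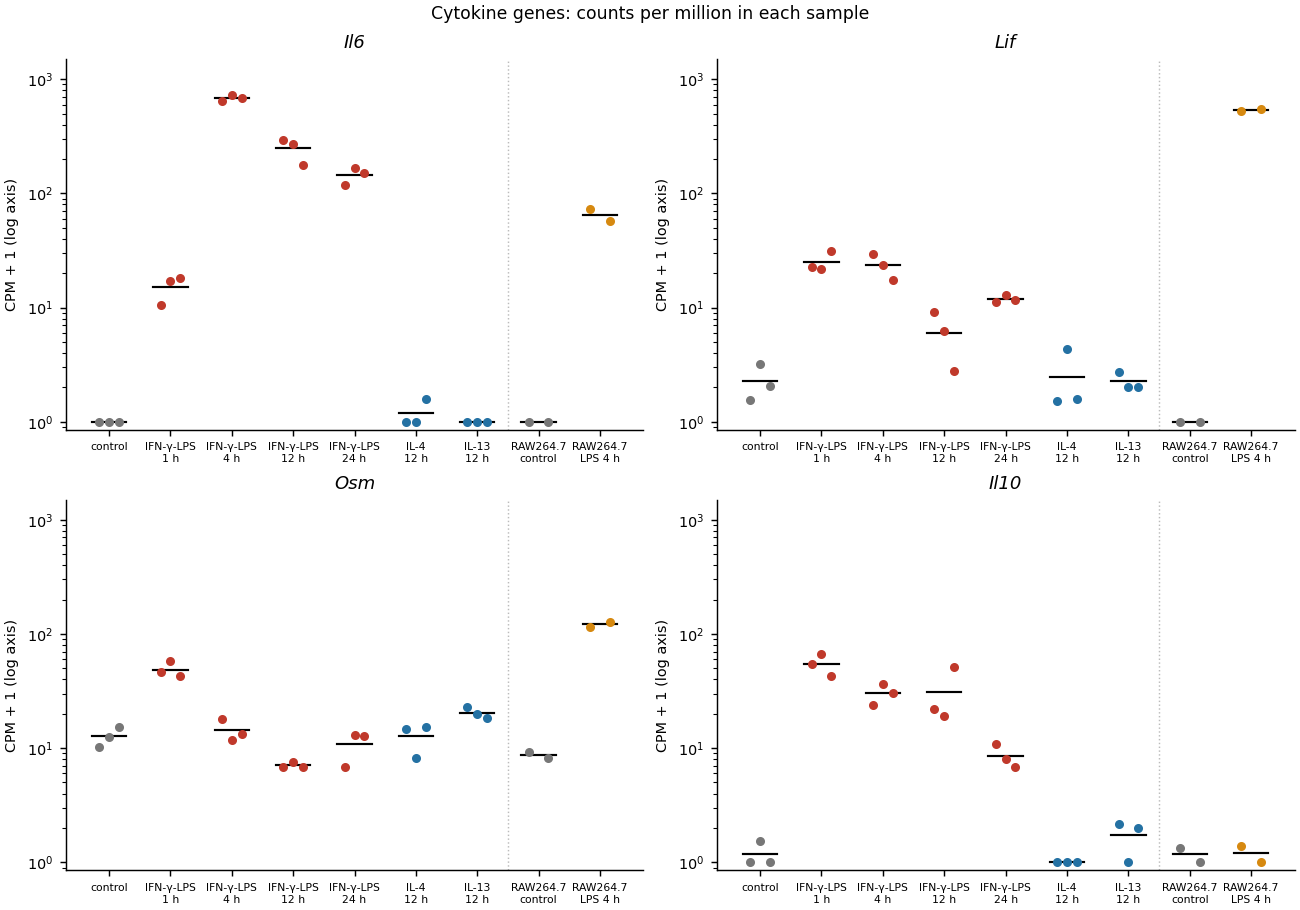
CPM plus 1 (log axis) of Il6, Lif, Osm and Il10 in each of the 25 samples (points) with group means (lines), for the 7 BMDM conditions and, right of the dotted line, the 2 RAW264.7 conditions. Il6 peaked at 4 h (685 CPM) and Il10 at 1 h (53.8 CPM) in BMDM, whereas Lif (540 CPM) and Osm (120 CPM) were highest in LPS-treated RAW264.7 cells.

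Lif, which acts through gp130 and the LIF receptor, was low in control BMDM, at 0.537, 2.17 and 1.07 CPM. Its levels were 21.8, 20.6 and 30.3 CPM at 1 h and 28.3, 22.5 and 16.4 CPM at 4 h, a difference of -0.14 ± 0.23 between the times that was not called (edgeR adjusted p = 0.653). At 12 h they were 8.09, 5.20 and 1.76 CPM, and the third library overlapped the control range. At 24 h all 3 libraries were again well above the controls, at 10.3, 11.9 and 10.5 CPM. The difference of 1.10 ± 0.34 between 24 h and 12 h was not called (edgeR adjusted p = 0.0128). It was called with library size only (0.00545), no filter beyond 1 count (0.00708) or the first 12 h library left out (0.00224). Against control, Lif rose by 4.22 ± 0.39, 4.08 ± 0.42, 1.95 ± 0.57 and 3.05 ± 0.45 at 1, 4, 12 and 24 h (edgeR adjusted p = 3.51e-15, 1.33e-13, 0.00268 and 2.69e-08). The 12 h call rested on single libraries: the adjusted p was 0.0803 without the first 12 h library, where the difference was 1.39, 0.0237 without the first control, 0.0128 without the third and 0.0149 with library size only.

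Osm, the neighbour of Lif, had a single early maximum in BMDM. Control libraries had 9.13, 11.4 and 14.4 CPM, and 1 h libraries 45.3, 56.6 and 41.5 CPM, with no overlap. Osm rose by 2.02 ± 0.21 at 1 h (edgeR adjusted p = 1.95e-13) and fell by 1.84 ± 0.22 from 1 to 4 h (7.76e-11), when the levels of 16.8, 10.9 and 12.3 CPM overlapped the controls. At 12 h the 3 libraries, at 5.78, 6.50 and 5.88 CPM and 10 counts each, lay below all controls, with a difference of -0.94 ± 0.32 that just missed the threshold (0.0101) and was called under 5 alternative settings and without the first control (0.000378 to 0.00915). The step from 4 to 12 h was a fall by 1.12 ± 0.34 (0.00525), a call lost with library size only (0.0265) and without any 1 of 5 of the 6 libraries (0.0107 to 0.0504). At 24 h the levels were 5.87, 11.9 and 11.8 CPM, a difference from control of -0.23 ± 0.27 (0.499). The number of Osm counts per Lif count was 1.37 to 2.75 at 1 h and 0.483 to 0.750 at 4 h.

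Both chains of the IL-6 receptor were lower after IFN-γ-LPS. Il6st, the chain shared by IL-6, LIF and oncostatin M, stood at 96.6, 89.0 and 88.3 CPM in control BMDM. It was 58.1, 51.5 and 62.7 CPM at 1 h, 51.4, 52.8 and 50.8 CPM at 4 h, 31.2, 27.9 and 23.5 CPM at 12 h, and 28.8, 25.8 and 29.5 CPM at 24 h. Every stimulated library lay below every control. Il6st fell by 0.66 ± 0.12, 0.82 ± 0.14, 1.73 ± 0.14 and 1.70 ± 0.14 at 1, 4, 12 and 24 h (edgeR adjusted p = 1.11e-05, 3.19e-07, 1.32e-17 and 2.26e-18). Of the steps between neighbouring times only that from 4 to 12 h was called, a fall by 0.91 ± 0.17 (5.47e-06), beside differences of -0.16 ± 0.15 from 1 to 4 h (0.393) and 0.03 ± 0.17 from 12 to 24 h (0.946).

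Il6ra, the private chain of the IL-6 receptor, had its lowest level at 4 h, the time of the highest Il6. Control libraries had 34.4, 21.7 and 34.2 CPM and 1 h libraries 23.5, 21.2 and 15.2 CPM. At 4 h the levels were 7.08, 2.33 and 7.38 CPM, from 8, 3 and 9 counts, below all other libraries of the time course. They were 18.5, 12.999 and 15.9 CPM at 12 h and 9.77, 11.9 and 12.2 CPM at 24 h. The 1 h and control ranges overlapped, and the difference of -0.61 ± 0.21 was not called (edgeR adjusted p = 0.018), although it was with library size only, with the groups compared alone and without the second control (0.00112 to 0.00744). Il6ra fell by 2.44 ± 0.31 at 4 h, 0.92 ± 0.22 at 12 h and 1.40 ± 0.22 at 24 h (1.46e-10, 0.000281 and 1.39e-07). From 4 to 12 h it rose by 1.52 ± 0.35 (0.000268), and without the second 4 h library, the one with 3 counts, that difference was 1.11 and not called (0.0139).

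The chains of the IL-10 receptor moved differently from each other. Il10ra, the private chain, had 174, 155 and 165 CPM in controls, 449, 467 and 456 CPM at 1 h, and 351, 377 and 335 CPM at 4 h. At 12 h it had 211, 201 and 233 CPM and at 24 h 176, 184 and 194 CPM. The 1, 4 and 12 h libraries lay above all controls, and each time point lay below the one before it. The lowest 24 h library, at 176 CPM, stood just above the highest control, at 174 CPM. Il10ra rose by 1.47 ± 0.09 at 1 h, 1.11 ± 0.10 at 4 h and 0.38 ± 0.10 at 12 h (edgeR adjusted p = 2.58e-23, 5.3e-17 and 0.000461), and the 24 h difference was 0.16 ± 0.10 (0.143). The steps from 1 to 4 h and from 4 to 12 h were falls by 0.37 ± 0.09 (0.000434) and 0.72 ± 0.09 (8.16e-10).

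Il10rb, the chain shared with other cytokines of the IL-10 family, had group means between 262 and 370 CPM over the time course. Control libraries had 323, 324 and 319 CPM, and the means ± SD (n = 3) of the 1, 4, 12 and 24 h groups were 328 ± 8.12, 294 ± 6.51, 370 ± 53.4 and 262 ± 5.58 CPM. Only the 24 h difference from control was called, a fall by 0.30 ± 0.09 (edgeR adjusted p = 0.00356), and that call was lost, with adjusted p between 0.0112 and 0.0134, when any 1 of 4 libraries was left out. Between times, Il10rb rose by 0.33 ± 0.09 from 4 to 12 h (0.00219) and fell by 0.50 ± 0.09 from 12 to 24 h (8.12e-06). The rise was not called without the second 4 h library (0.0134) or the third 12 h library (0.0716). The number of Il10ra counts per Il10rb count was 0.477 to 0.540 in controls. At 1 h it was 1.35 to 1.45 and at 4 h 1.11 to 1.29, while the later groups had 0.545 to 0.655 (12 h) and 0.690 to 0.735 (24 h). Every stimulated library lay above every control in this ratio, which does not depend on the scaling between libraries.

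Scaling bears on all these receptor values. With library size in place of TMM factors the median log2 fold change of all tested genes moved from -0.09 to -0.66 at 4 h and from -0.02 to -0.38 at 12 h. Under that scaling the 4 h difference of Il10rb went from -0.13, not called (edgeR adjusted p = 0.229), to -0.71, called (9.57e-11), and those of Il6st and Il6ra were also more negative. The steps from 1 to 4 h of Il6st and Il10rb, both -0.52, were called as well (0.00198 and 7.6e-07), and the Il10ra difference at 12 h was 0.03 and not called (edgeR adjusted p = 0.798).

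**Figure D2:**
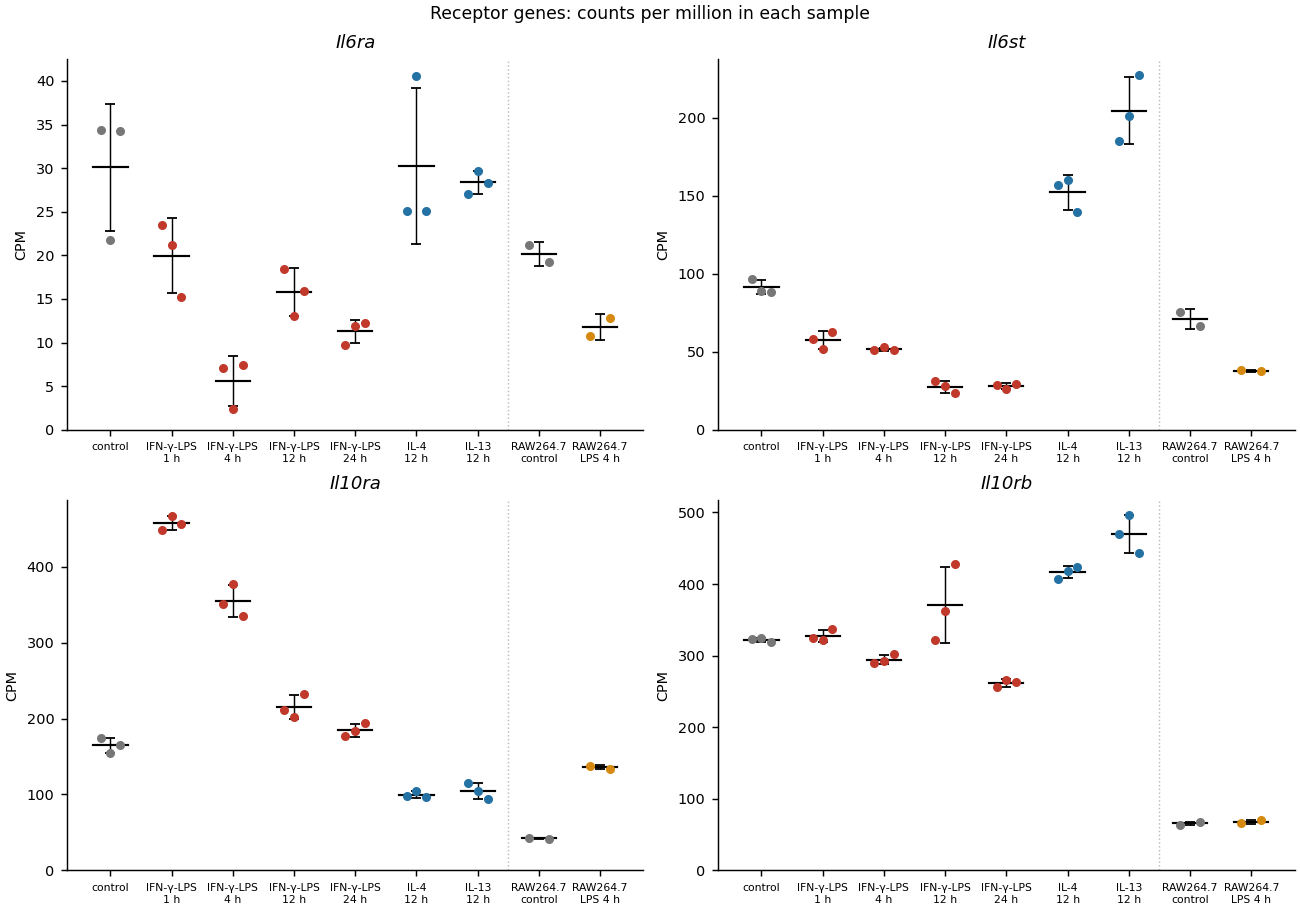
CPM (linear axis from 0) of Il6ra, Il6st, Il10ra and Il10rb in each sample (points), with group means (lines) and SD (bars; n = 3 per BMDM condition, n = 2 per RAW264.7 condition, right of the dotted line). Il6st ran from 27.6 CPM at 12 h of IFN-γ-LPS to 204 CPM after IL-13, and Il10ra from 99.7 CPM after IL-4 to 457 CPM at 1 h of IFN-γ-LPS in BMDM.

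The second comparison asks what IL-4 and IL-13, the cytokines of alternative activation, did to the same genes at 12 h. After IL-4, 3 of the 8 members were called against control, where 6.25% of all tested genes were, and after IL-13 the same 3 members were called, where 8.32% of genes were. All 3 were receptor chains: Il6st and Il10rb rose and Il10ra fell. None of the 4 ligands was called under either cytokine.

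Il6st, at 88.3 to 96.6 CPM in controls, was 157, 160 and 140 CPM after IL-4 and 185, 201 and 227 CPM after IL-13, with no overlap among the 3 groups. It rose by 0.74 ± 0.11 after IL-4 and 1.16 ± 0.11 after IL-13 (edgeR adjusted p = 3.48e-07 and 2.26e-14). Il10ra was 97.9, 105 and 96.6 CPM after IL-4 and 115, 104 and 94.2 CPM after IL-13, all below the lowest control at 155 CPM. It fell by 0.72 ± 0.10 after IL-4 and by 0.66 ± 0.10 after IL-13 (9.79e-08 and 5.62e-07). Il10rb was 408, 418 and 424 CPM after IL-4 and 470, 496 and 444 CPM after IL-13, all above the highest control at 324 CPM, and rose by 0.37 ± 0.09 and 0.55 ± 0.09 (0.00185 and 1.41e-06). The IL-4 call of Il10rb was lost, with adjusted p between 0.0101 and 0.0141, when any 1 of 3 libraries was left out.

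The remaining members did not pass the test. Il6ra was at 25.1, 40.6 and 25.0 CPM after IL-4 and 27.0, 29.7 and 28.3 CPM after IL-13, overlapping the controls. Osm was at 13.6, 7.23 and 14.3 CPM after IL-4 and at 21.9, 18.9 and 17.2 CPM after IL-13. All 3 IL-13 libraries lay above all controls for Osm, with a difference of 0.72 ± 0.24 (edgeR adjusted p = 0.0333). Il6 had 1 count in the 3 IL-4 libraries and 0 in the 3 IL-13 libraries, Il10 had 0 and 4, and Lif was at means of 1.49 and 1.25 CPM.

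Between IL-13 and IL-4, 0 of the 8 members were called by edgeR or by DESeq2, and 3 had an unadjusted edgeR p under 0.05. Of the 10612 tested genes, 8 were called (0.0754%) and 640 had an unadjusted edgeR p under 0.05. Osm differed by 0.71 ± 0.24 (edgeR adjusted p = 0.458), Il6st by 0.43 ± 0.10 (0.0567) and Il10rb by 0.17 ± 0.09 (0.824), each higher after IL-13. For all 3 genes the 3 IL-13 libraries lay above all 3 IL-4 libraries. These 3 are the members picked by their unadjusted p, and the share of all genes with such a separation was not determined.

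The libraries at 24 h of IFN-γ-LPS and those of IL-4 and IL-13 had a lower share of antisense counts on Rn45s, 0.00603% to 0.0214%. The control, 1, 4 and 12 h BMDM libraries had 0.0386% to 0.122%. The RAW264.7 libraries, at 0.0199% to 0.0283%, also lay below those control, 1, 4 and 12 h libraries. Comparisons between these sets of libraries cannot be told apart from that difference between libraries. Within the set of 24 h, IL-4 and IL-13 libraries, the receptor differences were as follows. Against 24 h of IFN-γ-LPS, Il6st was higher by 2.43 ± 0.13 after IL-4 and 2.86 ± 0.12 after IL-13. Il10rb was higher by 0.67 ± 0.09 and 0.84 ± 0.09, and Il10ra was lower, with differences of -0.89 ± 0.10 and -0.82 ± 0.10. All 6 were called (edgeR adjusted p from 1.12e-32 to 8.97e-10).

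The third comparison sets classical against alternative stimulation at the same time of 12 h. Against IL-4, 6 of the 8 members differed after IFN-γ-LPS, where 41% of all tested genes did, and against IL-13 all 8 did, where 41% of genes did as well. Il6, Lif, Il10 and Il10ra were higher after IFN-γ-LPS, and Il6ra and Il6st were lower, in both comparisons. The Il6ra call was lost against IL-4 without the second IL-4 library, where the difference was -0.66 (edgeR adjusted p = 0.0232), and against IL-13 without the second 12 h IFN-γ-LPS library (0.0130). The Il6st difference was -2.46 ± 0.14 against IL-4 and -2.89 ± 0.13 against IL-13 (edgeR adjusted p = 8.01e-27 and 1.35e-31), from 23.5 to 31.2 CPM on one side and 140 to 227 CPM on the other. Il10ra was higher by 1.11 ± 0.10 and 1.04 ± 0.10 (1.11e-15 and 8.64e-15). Il10 was at least 54.2-fold higher than after IL-4, where its count was 0, and Il6 at least 467-fold higher than after IL-13. Osm and Il10rb were called against IL-13, with differences of -1.66 ± 0.29 and -0.34 ± 0.09 (9.42e-07 and 0.00062), beside -0.95 ± 0.32 and -0.17 ± 0.09 against IL-4 that were not called (0.0109 and 0.105); between IL-13 and IL-4 themselves neither was called. These calls depended on the fit: Osm against IL-4 was called with RLE factors, Rn45s kept in, library size only or the second IL-4 library left out (0.000436 to 0.00994), Il10rb against IL-4 with library size only (1.98e-07) or the third 12 h IFN-γ-LPS library left out (0.00618), and Il10rb against IL-13 was lost without the first 12 h IFN-γ-LPS library (0.0253). The Lif calls rested on few counts: without the first 12 h IFN-γ-LPS library the differences were 1.16 and 1.41 and neither was called (0.148 and 0.0809).

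**Figure D3:**
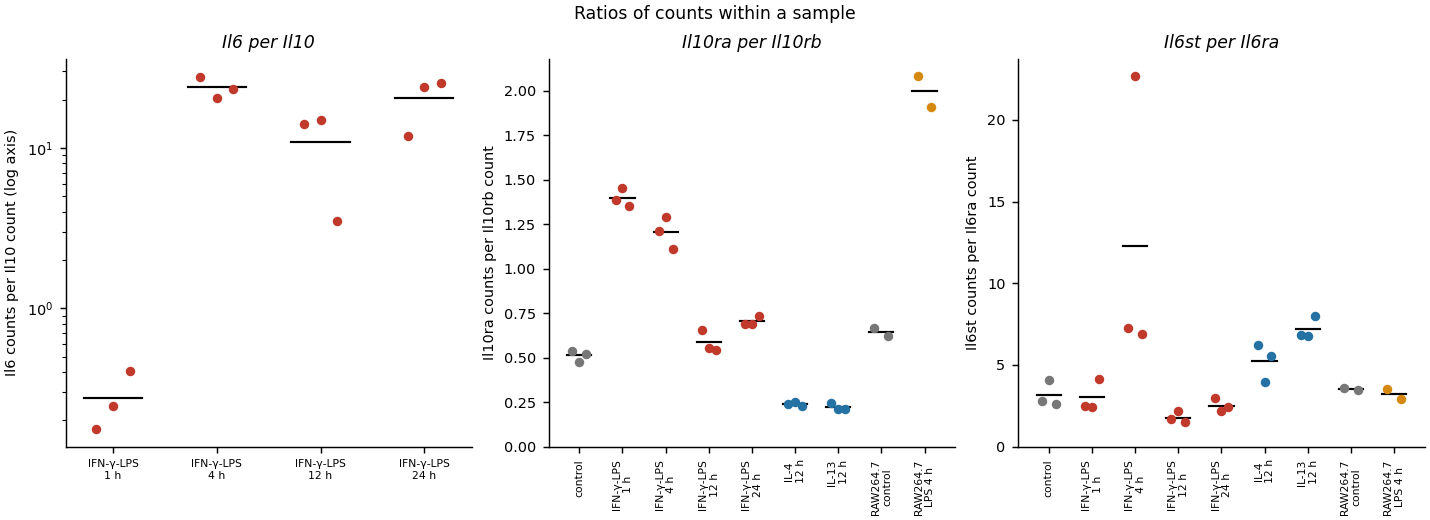
Ratios of counts of gene pairs in each sample (points) with group means (lines): Il6 per Il10 on a log axis for the 4 IFN-γ-LPS times, and Il10ra per Il10rb and Il6st per Il6ra on linear axes for all 9 conditions. Il6 per Il10 was below 1 in the 3 libraries at 1 h and above 3 in all later ones, Il10ra per Il10rb was lowest after IL-4 and IL-13 (0.210 to 0.250), and the high Il6st per Il6ra point at 4 h, 22.7, rests on 3 Il6ra counts.

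The fourth comparison asks which of these genes LPS alone moved in RAW264.7 cells at 4 h. LPS changed 5 of the 8 members, where 18.5% of all tested genes changed: Il6, Lif, Osm and Il10ra rose and Il6st fell. Lif had 0 counts in both RAW264.7 controls, which allows up to 0.532 CPM, and 530 and 551 CPM after LPS, at least 1017-fold higher (edgeR adjusted p = 2.22e-42). Il6 also had 0 counts in both controls and reached 71.3 and 55.8 CPM, at least 118-fold higher (2.53e-09). Osm went from 8.33 and 7.25 CPM to 115 and 126 CPM, a rise of 3.94 ± 0.21 (5.83e-27). Il10 was not detectable above the floor at this depth: 1 count was seen in the 2 controls and 1 in the 2 LPS libraries. Thus, of the ligands, RAW264.7 cells had Lif above every BMDM library, Osm above every BMDM library, and Il6 between the 1 h and 24 h levels of BMDM.

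Among the receptors of RAW264.7 cells, Il10ra went from 42.7 and 41.7 CPM to 138 and 134 CPM, a rise of 1.68 ± 0.13 (edgeR adjusted p = 4.25e-18). Il6st went from 75.7 and 66.7 CPM to 38.2 and 37.4 CPM, a fall by 0.91 ± 0.15 (9.09e-07). Il6ra was at 21.2 and 19.2 CPM without and at 10.8 and 12.8 CPM with LPS; the groups did not overlap, but the difference of -0.77 ± 0.26 was not called (0.0201), although it was with library size only (0.00521) and with the groups compared alone (0.00897). Il10rb was at 63.9 and 67.1 CPM and at 66.1 and 70.0 CPM, a difference of 0.06 ± 0.13 (0.821). The number of Il10ra counts per Il10rb count went from 0.622 and 0.668 to 2.08 and 1.91, so in both cell types it was higher in every library with LPS for 4 h than in the controls.

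Without a stimulus, 4 of the 8 members were lower in RAW264.7 cells than in BMDM, where 65.6% of all tested genes differed and 33.7% were lower. Il10rb was lower by 2.30 on the log2 scale (-2.30 ± 0.11; edgeR adjusted p = 3e-29) and Il10ra also (-1.96 ± 0.12; 1.22e-23). Il6st differed by -0.36 ± 0.13 (0.00941), a call that was lost with DESeq2 (adjusted p = 0.0273) and when any 1 of the 5 libraries was left out (0.0108 to 0.128). Lif, with 7 counts in the BMDM controls and 0 in RAW264.7, was at least 2.36-fold lower (0.0057), and was not called with DESeq2, with library size only, without the second BMDM control or without either RAW264.7 control. The cell types also differ in origin and culture, their libraries differ in the antisense share on Rn45s, and the RAW264.7 libraries were 2 per group.

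The responses at 4 h were set against each other in the same fit, with the limit that BMDM received IFN-γ with LPS and RAW264.7 cells LPS alone, so that cell type and agent cannot be told apart. Of the 8 members, 4 differed in response, where 25% of all tested genes did, all with the more positive response in RAW264.7, as in 9.75% of genes. The Osm response differed by 3.76 ± 0.37 (edgeR adjusted p = 9.43e-14), from 0.18 ± 0.29 in BMDM and 3.94 ± 0.21 in RAW264.7. The Il6ra response differed by 1.67 ± 0.43 (0.00123) and that of Il10ra by 0.58 ± 0.16 (0.00329), but the first call was lost without the second BMDM 4 h library, where the difference was 1.27 (0.0222), or the second RAW264.7 LPS library (0.0150), and the second call without any 1 of 4 libraries (0.0109 to 0.0214). Lif differed by a fitted 8.94 ± 1.39 (1.8e-07), a size that depends on the prior count because RAW264.7 controls held no Lif count. For Il6, at 0 in both controls, the difference could not be estimated. The Il10 response differed by -6.88 ± 3.86 and was not called (0.188), with 1 count in each RAW264.7 group. Between the stimulated 4 h groups themselves, both were lower in RAW264.7 cells. The differences from BMDM were -3.44 ± 0.20 for Il6 and -6.89 ± 0.78 for Il10 (edgeR adjusted p = 3.2e-12 and 8.61e-09). Il6st fell by similar amounts, 0.82 ± 0.14 and 0.91 ± 0.15, with a difference of -0.09 ± 0.20 (0.803).

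To set different genes side by side, levels were divided by the length of all merged GENCODE M21 exons. The length of the transcripts expressed was not determined, and the order of genes depends on it. On this scale Il10rb was the most abundant of the 4 receptor genes in every BMDM condition, at 142 to 254 CPM per kb. It was followed by Il10ra at 28.5 to 131, Il6st at 2.51 to 18.6 and Il6ra at 0.648 to 3.5. Before division by length, Il6st stood above Il10ra after IL-4 (152 against 99.7 CPM) and IL-13 (204 against 105 CPM). Among the ligands the most abundant in BMDM was Osm in controls (5.13 CPM per kb), Il10 at 1 h (41), and Il6 at 4 h (282), 12 h (102) and 24 h (59.6). In LPS-treated RAW264.7 cells it was Lif (133), followed by Osm (53) and Il6 (26.2).

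Other genes of the pathway were followed as lists. Of 14 other genes of the IL-6 family and its receptors, 7 had enough counts to be tested; in BMDM 3, 4, 3 and 4 rose at 1, 4, 12 and 24 h, where 14.6%, 25.3%, 23.2% and 22.3% of all tested genes were called higher, and 2 fell at 24 h, where 20.5% were called lower. Il27, which encodes a subunit of IL-27, had 0 counts in control BMDM and rose to 2342 ± 218 CPM (SD, n = 3) at 4 h, at least 4338-fold higher. Ebi3, the partner subunit of IL-27, rose by 3.80 ± 0.19 at 4 h, and Clcf1, a cytokine that signals through gp130, by 6.00 ± 0.30 at 1 h and 5.46 ± 0.33 at 4 h. Osmr, the oncostatin M receptor chain, rose by 1.43 ± 0.43 at 4 h, from 3.93 ± 2.53 to 10.8 ± 1.54 CPM, and Lifr, the LIF receptor chain, fell at 24 h (-2.05 ± 0.47). Il11ra1, the private chain of the IL-11 receptor, was the member of this list that moved with IL-4 and IL-13, by 1.55 ± 0.17 and 1.37 ± 0.17, from 26.0 ± 1.71 CPM to 76.6 ± 7.87 and 67.4 ± 0.410 CPM, and it fell at 24 h of IFN-γ-LPS (-1.04 ± 0.22). In RAW264.7 cells Osmr had 0 counts in all 4 libraries, so the gene of the oncostatin M receptor was not detected where Osm was highest, and Il27 rose to 14.7 ± 2.75 CPM (SD, n = 2).

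Of 8 other genes of the IL-10 family and its receptors, 1, Il19, had enough counts to be tested. Il19 had 0 counts in control and 1 h libraries and 8.64 ± 3.76 CPM (SD, n = 3) at 4 h, at least 16.3-fold higher than control, and was also called at 12 and 24 h from 10 and 9 counts. Il22, Il24, Il20ra, Il22ra1 and Il22ra2 had 0 counts in all 25 libraries.

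Of 12 genes of the JAK-STAT3 relay and its inhibitors, all tested, 7, 10, 10 and 9 rose at 1, 4, 12 and 24 h of IFN-γ-LPS, and 0 fell; the shares of all tested genes called higher at these times were 14.6%, 25.3%, 23.2% and 22.3%, and lower 10.3%, 23.2%, 21.6% and 20.5%. The median log2 fold change of the list was 0.54, 2.31, 1.49 and 0.94, with Cish, whose control count was 0, entered at its bound; that of all tested genes was -0.02, -0.09, -0.02 and -0.01. Socs3, the inhibitor of gp130, went from 4 counts in the 3 control libraries to 597 ± 20.7 CPM at 1 h and 712 ± 57.9 CPM at 4 h, and stood at 199 ± 16.6 CPM at 24 h. Socs1, an inhibitor of JAK kinases, was at 1.44 ± 1.36 CPM in controls and 1.35 ± 0.502 CPM at 1 h, and rose by 6.41 ± 0.29 at 4 h. Jak2 rose by 4.63 ± 0.11 at 4 h, and Stat3 itself by 0.52 ± 0.10, 2.33 ± 0.10, 1.88 ± 0.10 and 0.92 ± 0.10 at the 4 times. After IL-4, 3 genes of the list rose (3.78% of all genes), and after IL-13 4 did (4.98%). Jak2 (1.21 ± 0.11 and 1.70 ± 0.11) and Socs1 (2.99 ± 0.46 and 3.70 ± 0.41) were called under both, as was Cish, at least 7.94- and 24.9-fold higher, while Socs3 was at 1.29 ± 1.13 and 1.09 ± 0.612 CPM, overlapping the controls. In RAW264.7 cells 5 genes rose after LPS (8.9%), among them Socs3 (4.25 ± 0.20), Jak2 (1.92 ± 0.14) and Stat3 (0.77 ± 0.14).

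**Figure D4:**
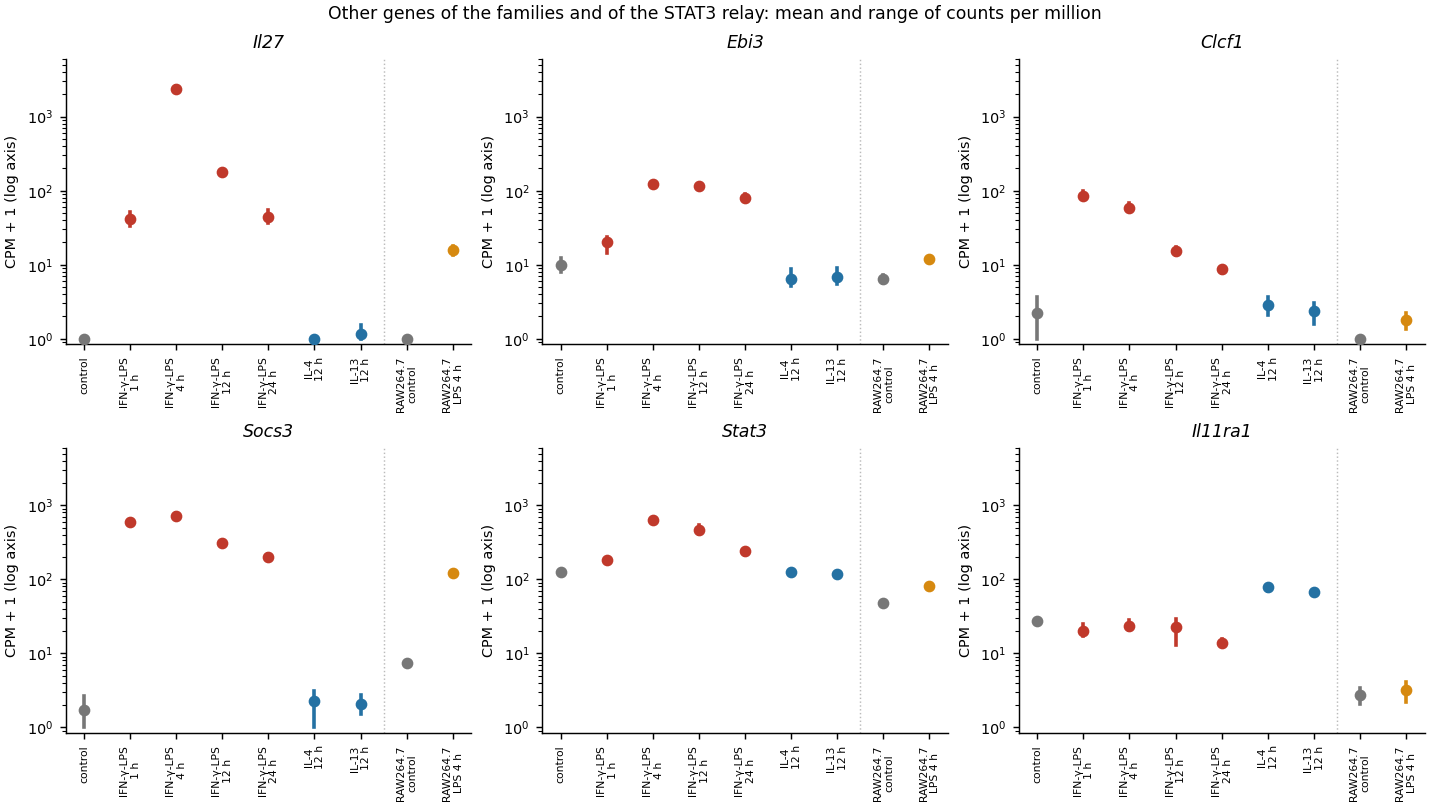
Mean (points) and range (bars) of CPM plus 1 (log axis) over the 3 libraries of each BMDM condition and the 2 libraries of each RAW264.7 condition, right of the dotted line, for 3 other IL-6 family ligands, Socs3, Stat3 and the IL-11 receptor chain Il11ra1. Il27 reached 2342 CPM and Socs3 712 CPM at 4 h of IFN-γ-LPS, and Il11ra1 was highest after IL-4 (76.6 CPM).

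Of 13 genes known to respond to STAT3 in macrophages, 10, 13, 12 and 10 rose at 1, 4, 12 and 24 h, with a median log2 fold change of 1.83, 2.41, 1.74 and 1.54, beside the 14.6%, 25.3%, 23.2% and 22.3% of all genes called higher; 1 fell at 12 h and 2 at 24 h. Il1rn, the antagonist of the IL-1 receptor, rose by 4.88 ± 0.21, 7.33 ± 0.20, 8.59 ± 0.20 and 6.11 ± 0.20 at the 4 times, and Pim1, a kinase of cell survival, by 4.54 ± 0.12 at 4 h. Nfil3, a repressor, rose at 4 h (2.62 ± 0.25) and also after IL-4 (2.44 ± 0.24) and IL-13 (2.80 ± 0.23). Fcgr1, a high-affinity Fc receptor, rose by 3.90 ± 0.17 at 12 h and fell after IL-4 (-0.93 ± 0.23), after IL-13 (-0.95 ± 0.23) and in RAW264.7 cells after LPS (-1.28 ± 0.20). Several genes of this list also respond to IFN-γ or to NF-κB, so their counts do not separate these inputs. In RAW264.7 cells, 10 of the 13 rose after LPS (8.9% of all genes) and 1 fell (9.61%), with a median of 1.66. Il10 was not detected above the floor in these cells, while Il6, Lif and Osm rose. The part of each ligand in these changes was not tested.

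Of 16 transcription factors known to act on the Il6 or Il10 gene, 11 rose and 1 fell at 1 h, 9 and 3 at 4 h, 8 and 4 at 12 h, and 8 and 4 at 24 h, with medians of 1.08, 0.60, 0.34 and 0.40. Of all tested genes, 14.6%, 25.3%, 23.2% and 22.3% were called higher and 10.3%, 23.2%, 21.6% and 20.5% lower, so the shares that fell from 4 h on were near the background. Nfkbiz, which encodes a co-activator needed for Il6, rose by 7.39 ± 0.12 at 1 h and 5.93 ± 0.12 at 4 h, and fell after IL-4 (-1.31 ± 0.22) and IL-13 (-1.32 ± 0.22). The subunits Nfkb1 and Rel of NF-κB rose at 4 h by 3.59 ± 0.13 and 2.98 ± 0.19, and Irf1 by 5.67 ± 0.11. The AP-1 genes Fos and Jun rose at 1 h (1.22 ± 0.23 and 1.10 ± 0.11), and Jun then fell at 4 h (-2.04 ± 0.17). Fos at 4 h held 3 counts, a ratio of 22.2 below control (95% counting interval 7.38 to 109). Maf, a factor that acts on Il10, fell at 1 h (-1.11 ± 0.14) and 4 h (-1.42 ± 0.16), rose at 12 h (0.82 ± 0.12), and fell after IL-4 (-1.05 ± 0.14) and IL-13 (-1.15 ± 0.14).

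Of 10 genes for factors that destroy or stabilise cytokine messengers, 5 rose and 0 fell at 1 h, 6 rose and 2 fell at 4 h, 3 rose and 4 fell at 12 h, and 2 rose and 6 fell at 24 h, with medians of 0.45, 0.58, -0.24 and -0.60. Beside the same background, the rises at 12 h (23.2% of all genes) and 24 h (22.3%) and the falls at 4 h (23.2%) were near the share of all genes. Zc3h12a, the nuclease Regnase-1 that degrades Il6 messenger, rose by 2.48 ± 0.14 at 1 h and 2.90 ± 0.14 at 4 h, and Arid5a, which protects the same messenger, by 1.03 ± 0.32 and 4.09 ± 0.22. Zfp36, the destabilising protein tristetraprolin, rose by 3.69 ± 0.14 at 1 h and 0.55 ± 0.17 at 4 h and was called lower at 24 h (-1.02 ± 0.19). Its relatives Zfp36l1 and Zfp36l2 fell at 4 h (-3.25 ± 0.27 and -3.77 ± 0.21). Of the 2 proteases that release IL-6Rα from the cell surface, Adam17 rose by 0.76 ± 0.13 and Adam10 did not pass the test at 4 h; at 24 h Adam17 was higher (0.42 ± 0.12) and Adam10 lower (-1.08 ± 0.11).

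The genes whose levels over the 21 BMDM samples followed each member most closely were found by Pearson's r of log2 CPM among 9125 genes with a mean of at least 5 CPM; the points share libraries and conditions, so r is a description only. Il6 was followed by Oasl1, Irgm1 and Tap1 (r = 0.995, 0.994 and 0.994), genes known as interferon-inducible. Lif was followed by C1qa, Cxcl1 and Pdia6 (0.947, 0.937 and 0.930), Osm by Errfi1, Tmem173 and Dusp8 (0.900, 0.890 and 0.889), and Il10 by Fcgr4, Hk3 and AI504432 (0.977, 0.974 and 0.970). Il6st was followed most closely by Mrc1, the mannose receptor used as a marker of alternative activation (0.984), with Atp6v0a1 (0.984) and Matk (0.975). For Il6ra, Zfp652 and Dagla (0.941 and 0.935) were among the closest. Il10ra was followed by Slc9a3r1, Smim3 and Klf6 (0.962, 0.959 and 0.959), and Il10rb by Flrt2, Hmgn2 and Kdm7a (0.913, 0.911 and 0.906).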

How the data were processed

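Per the labels, the authors base-called reads with CASAVA 1.8.2, trimmed them with Trimmomatic 0.33 and aligned them with STAR 2.5.1 to mm10; the annotation release was not given in the sources used here. The deposited values are STAR's raw counts of reads per gene, in unstranded, antisense and sense columns; the sense column was used. Here Rn45s was left out of all libraries, genes with low counts were removed with filterByExpr (10612 of 24411 remained), and 1 robust quasi-likelihood model over 25 samples and 9 groups was fitted in edgeR 4.0.16 (R 4.3.3) with TMM factors. Levels are TMM-scaled CPM, and SE is the absolute log2 fold change divided by the square root of F. Calls used a Benjamini-Hochberg adjusted p of at most 0.01 over all tested genes of a contrast, with no limit on size. Folds against groups at 0 used a floor of 3 counts over the group; intervals and floors cover counting error only. The 8 genes and the gene lists were chosen with earlier results of these data known. Named genes were all 8 members, then up to 4 called genes with the largest change per list and comparison, with others of the lists named for their known role. The scripts were tested on simulated counts. Alternatives were DESeq2 1.42.0, other scalings and filters, unstranded counts, a replicate block, and leaving out each library. Separate RNA samples are replicates; no label ties them to separate animals, so p-values measure the spread between these samples, which may be technical. Replicate libraries differed from each other by more than sampling noise. Values of some single genes are not reported here.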

Additional observations from a re-analysis of the deposited data

Results flagged for a closer look

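Responses of 4 genes to 4 h of stimulation differed between RAW264.7 cells given LPS and BMDM given IFN-γ with LPS, by a test of the difference itself in the edgeR fit: Lif by 8.94 on the log2 scale, Osm by 3.76, Il6ra by 1.67 and Il10ra by 0.578, each more positive in RAW264.7. The Osm level was higher in 2 of 2 LPS libraries of RAW264.7 than in 3 of 3 BMDM libraries at 4 h. Those BMDM libraries overlapped their controls. Il6 and Il10, not called in this test, were lower in stimulated RAW264.7 cells than in stimulated BMDM at 4 h. The agent and the cell type cannot be told apart in these differences.

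Counts of the members on the strand opposite to the gene entered the comparisons above only as part of the unstranded counts. They exceeded those of all control libraries of the same cell type in 5 cases after scaling to CPM. As raw counts, 1 or more libraries of Il10ra at 12 h and of Il10rb at 4 h were no higher than the highest control. Il6 had 9 antisense counts over the 3 BMDM libraries at 4 h, beside 2499 sense counts and 0 antisense counts in controls (0.359% of its counts). Lif had 9 in the LPS-treated RAW264.7 libraries, beside 2920 sense counts (0.307%). Il10ra had 8 at 1 h and 4 at 12 h, beside 1 in controls, or 0.328% and 0.372% of its counts. Il10rb had 11 at 4 h, beside 7 in controls, or 1.02% of its counts. None of these 5 shares exceeded the general level. Taken over all genes, the antisense share lay between 1.17% and 1.41% in every library of the groups named here. The source of the antisense counts was not tested.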

How the results depend on the processing

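Most calls of the members kept their direction and their side of the threshold. Of the 105 log2 fold changes recomputed under each alternative, DESeq2 left 102 on the same side, RLE factors 100, keeping Rn45s 103, unstranded counts 102, no filter beyond 1 count 100, only the groups compared 94 of 102, and library size in place of TMM factors 80; a prior count of 2 left all 105. The cause was not tested where calls moved. The size cutoffs of the study's methods (1.5, 0.7 and 2 on the log2 scale) took the number of members called to 2 for 12 h against 4 h, 1 for 24 h against 12 h, 1 for IL-13 against control, 5 for 12 h IFN-γ-LPS against IL-13, 3 for RAW264.7 LPS, 2 for RAW264.7 control against BMDM control and 2 for the difference of responses. Only numbers that changed by more than 1.5-fold are listed, and other comparisons also lost members. For IFN-γ-LPS against control, Il10ra passed the cutoff of 1.5 at no time (1.47, 1.11 and 0.38 at 1, 4 and 12 h). Calls below it were also those of Il6st at 1 and 4 h (-0.66 and -0.82), Il6ra at 12 and 24 h (-0.92 and -1.40) and Il10rb at 24 h (-0.30). RAW264.7 control against BMDM control gave 2 with DESeq2 and with library size only, and 2 to 3 when a library was left out; 4 h against 1 h gave 7 with library size only.

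Changes of sign occurred only among differences that were not called in the fit reported above. For Osm under IL-4 the values were -0.00374 with DESeq2, -0.00399 with RLE factors, -0.0016 with library size only, -0.00934 with unstranded counts and -0.00412 with only the groups compared, and for Il6ra under IL-4 -0.00134 with DESeq2, -0.00195 with RLE factors and -0.00269 with only the groups compared. With library size only, Il10rb had -0.19 at 1 h, -0.15 at 12 h and -0.0806 in RAW264.7, Osm -0.40 at 4 h, Il10ra -0.0619 at 24 h, and the Il6st difference of responses 0.35. Leaving out 1 library in turn gave ranges that crossed 0 for Osm under IL-4 (-0.15 to 0.26), at 4 h (-0.0179 to 0.36) and at 24 h (-0.39 to 0.0240), for Il6ra under IL-4 (-0.26 to 0.13), under IL-13 (-0.27 to 0.0193) and in IL-13 against IL-4 (-0.22 to 0.18), for Lif in 4 h against 1 h (-0.33 to 0.0696), Il10 in 12 h against 4 h (-0.60 to 0.27), Il6st in 24 h against 12 h (-0.0754 to 0.13) and in the difference of responses (-0.18 to 0.00323), and Il10ra in IL-13 against IL-4 (-0.00711 to 0.14).

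Over all tested genes, library size only changed the split at 4 h from 2685 higher and 2464 lower to 1518 and 4991. IL-4 against control had 663 called genes, and 1023 with only the groups compared; IL-13 against IL-4 had 8, and 3 with DESeq2 and 13 with no filter; RAW264.7 LPS had 1964, and 1288 without the second LPS library. No clear pairing of the samples by replicate number was seen. Deviations from the group means correlated with a mean r of 0.0144 between samples that share a number and -0.00724 between the rest. Of 21 BMDM samples, 9 correlated best with their own number. With so few samples per group, this check cannot exclude a shared preparation. With the replicate block, 3 members in place of 4 were called for RAW264.7 control against BMDM control, where Il6st had an adjusted p of 0.0119, and no other call of a member changed. Depth limits Il6ra at 4 h, Osm at 12 h and Lif in control, IL-4 and IL-13 BMDM, with 10 or fewer counts per library, and Lif at 12 h of IFN-γ-LPS, with 3 to 14.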
